A study of Mus musculus with 12 samples.

Results

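A set of 10 genes that mark endothelial cells were described here across the sorted tumour cell libraries of a study of metastatic dormancy. They are Pecam1, Cdh5, Cldn5, Kdr, Tek, Ptprb, Calcrl, Ramp2, Egfl7 and Tmem100, matched by symbol to 10 of the 54146 gene rows of the table, and all 10 passed the filter that left 13002 genes for testing. The libraries were made from D2A1 cells, a mouse mammary carcinoma line carrying a doxycycline-inducible histone H2B fused to green fluorescent protein (GFP), which were stained with the membrane dye CellVue Claret, injected into the tail vein and sorted from the lungs in aliquots of 50 cells, 12 days later by the sequencing methods. GFP-positive cells that kept the dye, which is diluted at each division, were called dormant, and GFP-positive cells that had lost it were called growing. The hosts were female mice aged 6 to 8 weeks. WT hosts were Tgfbr2 floxed controls, and KO hosts carried the same floxed Tgfbr2 with a Cre driven by the Lysozyme 2 promoter, so that this TGF-beta receptor gene was deleted in host myeloid cells while the injected tumour cells were not altered. Dormant and growing cells of each host thus formed 4 groups of 3 libraries, called dormant WT, growing WT, dormant KO and growing KO. Libraries of WT hosts came from library batch 1 and those of KO hosts from batch 2, so host and batch cannot be told apart among the labelled libraries (columns whose names give WT and batch 2 matched no labelled sample and were not used here), whereas each comparison of dormant with growing cells within a host lies within a batch. The labels give replicates without saying that each is a separate animal, while the study's legend gives 3 mice per group, and p-values measure the spread between these libraries.

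Endothelial cells line every blood vessel, and in the lung they form the capillary bed that wraps the alveoli. They hold together through adherens and tight junctions, in which VE-cadherin (Cdh5), PECAM-1 (Pecam1) and claudin-5 (Cldn5) take part. They respond to vascular endothelial growth factor (VEGF) through the receptor kinase Kdr and to angiopoietins through the receptor kinase Tek, and the receptor phosphatase Ptprb, also called VE-PTP, acts on Tek and on VE-cadherin. Calcrl is a G protein-coupled receptor that binds adrenomedullin when it is paired with the accessory protein Ramp2. Egfl7 encodes a secreted protein of the vessel wall and hosts the microRNA gene Mir126a in its locus, and Tmem100 encodes a membrane protein induced in endothelium by bone morphogenetic proteins acting through the receptor ALK1 (Acvrl1). None of these genes is a marker of mammary carcinoma cells.

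The genes lie on GRCm38, to which the build mm10 of the submitters corresponds, at chr11:106654217-106750628 (Pecam1, minus strand), chr8:104101625-104144511 (Cdh5, plus), chr16:18776847-18778262 (Cldn5, plus), chr5:75932827-75978458 (Kdr, minus), chr4:94739289-94874976 (Tek, plus), chr10:116275523-116389535 (Ptprb, plus), chr2:84330626-84425411 (Calcrl, minus), chr11:101246028-101259546 (Ramp2, plus), chr2:26580014-26593120 (Egfl7, plus) and chr11:90030348-90036508 (Tmem100, plus). All 10 are protein-coding. Ramp2 overlaps Vps25 on the same strand, and Vps25 was at a mean of 143, 113, 114 and 120 TPM in the 2 dormant groups (WT, then KO) and the 2 growing groups (WT, then KO), so its level did not follow that of Ramp2. Egfl7 overlaps Agpat2 on the opposite strand, and Agpat2 was at 19.6, 8.96, 14.03 and 21.8 TPM in the same order. Mir126a, inside Egfl7, was listed at 0 in all 12 libraries.

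RefSeq start windows on GRCm38.p6 were at hand for 5 of the members, Egfl7 (3 starts), Calcrl, Tek, Kdr and Cldn5. The stretches below are shown because they stand before a start of the member with the largest difference between dormant KO and dormant WT (Cldn5), of the member whose difference was smallest (Kdr), and of the members that hold an ETS-type motif, the kind of site read by ETS factors such as Erg and Fli1. The motif searched was CAGGAAG on both strands over 250 bases before each start, chosen after these windows had been read, and its matches are in capitals. It occurred in 3 of the 7 windows of members (2 of 5 genes) and in 10.8% of all 32851 windows of that length, and a match is a description and not a binding site. The Egfl7 stretches lie at chr2:26580956-26581055 and chr2:26583764-26583863 on the plus strand, inside the annotated gene and outside its exons. The Calcrl stretch of 30 bases lies at chr2:84425316-84425345 on the minus strand, within an annotated exon. The Kdr stretch, at chr5:75978459-75978558 on the minus strand, and the Cldn5 stretch, at chr16:18776747-18776846 on the plus strand, lie outside annotated genes and held no match.
Egfl7, upstream start: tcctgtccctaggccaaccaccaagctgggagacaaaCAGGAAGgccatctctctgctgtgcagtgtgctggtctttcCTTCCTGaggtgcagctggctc
Egfl7, next start: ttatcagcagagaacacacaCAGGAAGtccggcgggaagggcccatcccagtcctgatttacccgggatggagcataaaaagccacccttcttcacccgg
Calcrl: ggggtgatgtaaCAGGAAGctgtgatgttt
Kdr: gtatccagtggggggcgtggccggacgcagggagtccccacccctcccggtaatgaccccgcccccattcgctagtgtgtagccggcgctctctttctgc
Cldn5: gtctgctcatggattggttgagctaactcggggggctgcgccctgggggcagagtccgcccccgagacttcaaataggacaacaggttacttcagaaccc

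Values are TPM, a measure of relative transcript abundance, which are scaled for gene length and to the same total in each library and keep no read depth, so the number of reads behind a value is unknown. Between 11325 and 15315 genes were above 0 per library, and no pair of libraries was identical. Tgfbr2 was deleted in cells other than those sorted and does not check the labels here; it ranged from 0.14 to 11.1 TPM in dormant WT and from 2.19 to 11.5 TPM in dormant KO libraries. Of the markers of the sorted line, the epithelial Krt8 and Krt18 were present in all 4 groups, while Epcam and Cdh1 had group means of at most 3.01 and 1.42 TPM. The mammary carcinoma list (8 genes, mostly Spp1 by level) summed to 1879 to 2309 TPM in dormant KO libraries, below every other group (dormant WT 33451 to 41313, growing WT 33124 to 35407, growing KO 30486 to 34378 TPM). In bulk libraries such as these, fewer cells of a type and less RNA per cell cannot be told apart.

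The 10 endothelial genes stood highest in the dormant KO libraries. Their summed TPM was 1109, 1246 and 1104 there. Dormant WT libraries gave sums of 11.6, 164 and 87.1 TPM, growing WT libraries 15.3, 12.4 and 16.9 TPM, and growing KO libraries 58.2, 51.8 and 56.4 TPM. The sum thus made up 0.115% ± 0.008 of all TPM for dormant KO (SD, n = 3), where dormant WT had 0.009% ± 0.008, growing WT 0.0015% ± 0.0002 and growing KO 0.0055% ± 0.0003. The dormant KO sums did not overlap with those of any other group, and the growing KO sums lay apart from and above the growing WT sums. The dormant WT sums spread over both growing groups, from below the lowest growing WT library to above the highest growing KO library. In dormant KO libraries, where every member was above 0, the order of mean levels was Ramp2 (277 ± 52.4 TPM), Tmem100 (226 ± 39.6), Cldn5 (226 ± 80.6), Egfl7 (214 ± 10.7), Calcrl (102 ± 22.4), Pecam1 (45.1 ± 16.7), Cdh5 (21.5 ± 5.79), Kdr (19.4 ± 5.0), Ptprb (12.7 ± 1.81) and Tek (9.73 ± 8.06). The spreads of the 4 highest members overlapped, as did those of Cdh5 and Kdr and that of Tek with Ptprb, Kdr and Cdh5, so the order within these sets is not resolved.

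**Figure D1:**
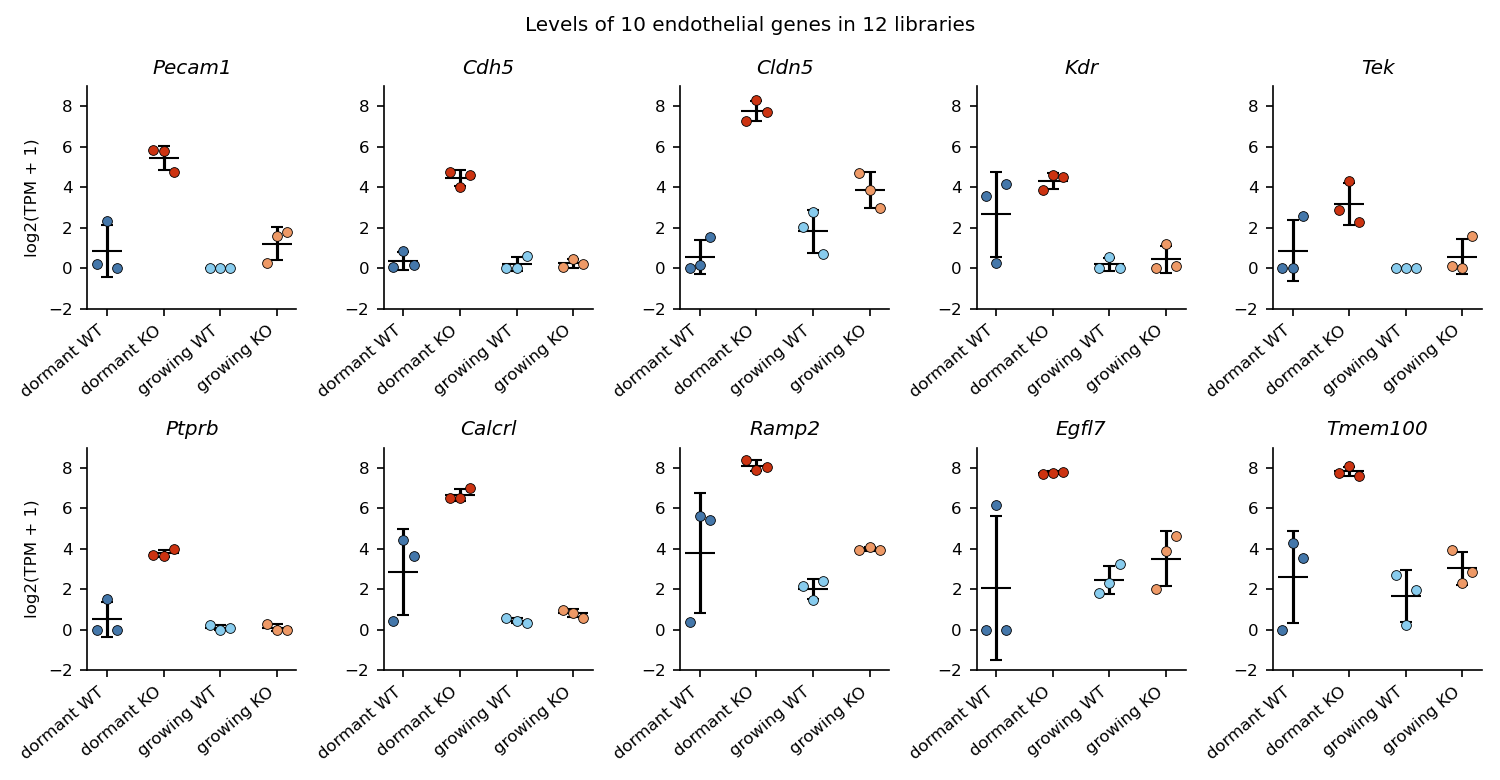
Level of each gene in each library, as log2(TPM + 1) on the y axis, with the 4 groups on the x axis, 3 points per group for replicates 1 to 3, and bars for the mean and SD. The dormant KO points sit above all others for 8 of the 10 genes, and for Kdr and Tek they overlap with dormant WT. Over all genes tested, dormant KO libraries all lay above dormant WT libraries in 18.6% and above growing KO libraries in 16.4%.

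**Figure D2:**
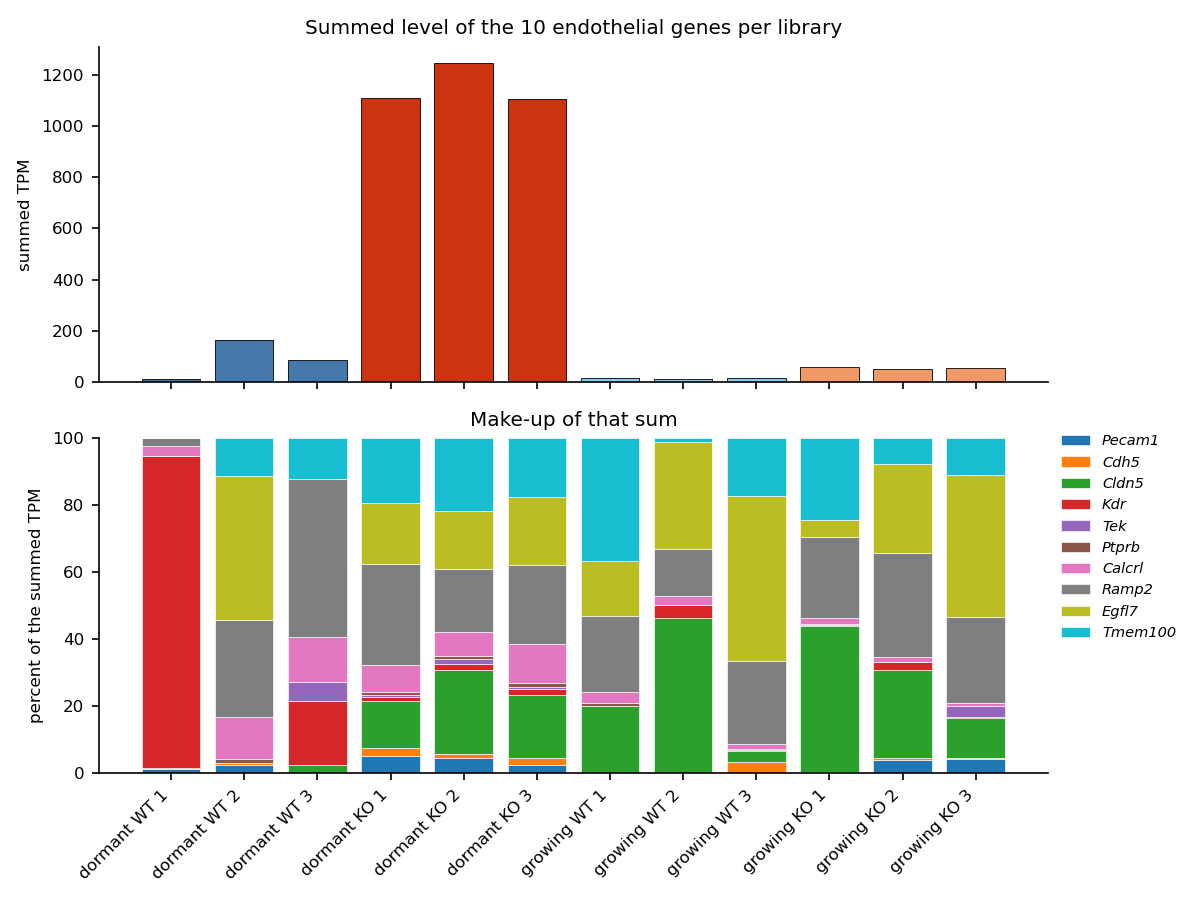
Summed TPM of the 10 genes per library (upper panel) and the share of that sum taken by each gene (lower panel). The dormant KO sums lie between 1104 and 1246 TPM and are led by Ramp2 (30.2% and 23.7%, replicates 1 and 3) or Cldn5 (25.2%, replicate 2), whereas Kdr alone makes up 93.1% of the sum in dormant WT replicate 1.

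The main comparison asked how host deletion of myeloid Tgfbr2 went with the levels in dormant cells. By limma on log2(TPM + 1), with Benjamini-Hochberg adjustment over 13002 genes and a call at an adjusted p of at most 0.05 and a difference of at least 1, 9 of the 10 genes were higher in the dormant KO group, where 12.9% of all genes tested were called higher. The differences ran from 1.67 to 7.21 with a median of 4.21, against a median of 0.17 over all genes tested. In 8 of the 10 genes the dormant KO libraries all lay above the dormant WT libraries, as did 18.6% of the genes tested. Cdh5, Ptprb, Tek and Calcrl reached 1 TPM in 0, 1, 2 and 2 libraries outside dormant KO and entered the test through the dormant KO libraries, so the count of calls is a description and not support for a direction.

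Of the junction genes, Cldn5, the tight junction protein, was at 156, 314 and 208 TPM in dormant KO against 0, 0.10 and 1.88 TPM in dormant WT libraries. No dormant WT library came near the lowest dormant KO library, and the difference of 7.21 (SE 0.70) on the log2(TPM + 1) scale was the largest of the members (adjusted p = 2.75e-05). Pecam1, an adhesion molecule of the cell border, was at 55.4, 54.1 and 25.9 TPM against 0.15, 3.94 and 0 TPM. Its difference was 4.62 (SE 0.69, adjusted p = 0.000513), with dormant KO replicate 3 the lowest of its group and still well above all dormant WT libraries. Cdh5, the adherens junction cadherin that defines the endothelium, was at 26.3, 15.1 and 23.1 TPM against 0.02, 0.82 and 0.10 TPM. It reached 1 TPM in no library outside dormant KO, and its difference was 4.11 (SE 0.43, adjusted p = 4.59e-05).

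The receptor genes were less alike. Kdr was at 13.7, 23.1 and 21.4 TPM in the dormant KO libraries and reached 10.8, 0.18 and 16.8 TPM in their WT counterparts. Dormant WT replicate 3 lay above dormant KO replicate 1, and the difference of 1.67 (SE 0.88, 95% confidence interval -0.26 to 3.59) was not called (adjusted p = 0.205). It was 0.46 without dormant WT replicate 2 and 2.42 without replicate 3, and was not called without any 1 library. The dormant WT mean of Kdr was 47.8% of the dormant KO mean, the highest such share of the members, the lowest being 0.29% for Cldn5. Tek was at 6.38, 18.9 and 3.89 TPM against 0, 0 and 5 TPM. A single dormant WT library overlapped with the dormant KO libraries, and the call rested close to the threshold (difference 2.30, SE 0.77, adjusted p = 0.0486). It was lost under 10 of 15 alternatives, including leaving out dormant WT replicate 1 or 2 (adjusted p = 0.123 for each) or dormant KO replicate 1 or 2 (0.087 and 0.17). Ptprb, the phosphatase partner of Tek, was at 11.8, 11.6 and 14.8 TPM against 0, 1.85 and 0 TPM. Its libraries were apart and close together within dormant KO, with a difference of 3.27 (SE 0.45, adjusted p = 0.000298).

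Both parts of the adrenomedullin receptor were higher in dormant KO libraries. Calcrl was at 88.3, 89.3 and 128 TPM against 0.34, 20.7 and 11.6 TPM in dormant WT libraries, a difference of 3.82 (SE 0.86, adjusted p = 0.00667). Ramp2 was at 335, 233 and 262 TPM against 0.29, 47.6 and 41.2 TPM, a difference of 4.31 (SE 1.09, adjusted p = 0.0129) that was 2.60 without dormant WT replicate 1 (adjusted p = 0.000721) and up to 5.22 without another library. For both genes dormant WT replicate 1 was the lowest of the group, near 0, while replicates 2 and 3 held some of each transcript.

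Egfl7, the secreted protein, with the ETS-type motif in 2 of its 3 start windows, was at 202, 216 and 223 TPM against 0, 70.7 and 0 TPM. Its dormant KO libraries were the most even of all members, with the highest 1.10 times the lowest, and its dormant WT level came from replicate 2 alone (difference 5.69, SE 1.38, adjusted p = 0.0103). Tmem100 was at 214, 270 and 194 TPM against 0, 18.5 and 10.5 TPM. The groups did not overlap, and the difference was 5.21 (SE 1.02, adjusted p = 0.00297).

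Which members were seen in dormant WT changed from library to library. Replicate 1 held a single member at 1 TPM or more, Kdr, which made up 93.1% of its summed level. Replicate 2 held 6 members at 1 TPM or more, led by Egfl7 with 43.0% of the sum, and Kdr was at 0.18 TPM there. Replicate 3 also held 6, led by Ramp2 with 47.3%, while Egfl7 and Pecam1 were at 0. No member reached 1 TPM in all 3 dormant WT libraries, whereas all 10 did so in all 3 dormant KO libraries. Cldn5 made up 0.75% of the mean member sum in dormant WT against 19.6% in dormant KO, and Kdr 10.6% against 1.68%. When only the 2 dormant groups entered the fit, the number of members called fell from 9 to 5, and Tek, Egfl7, Ramp2 and Calcrl were not called (adjusted p between 0.0785 and 0.23).

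**Figure D3:**
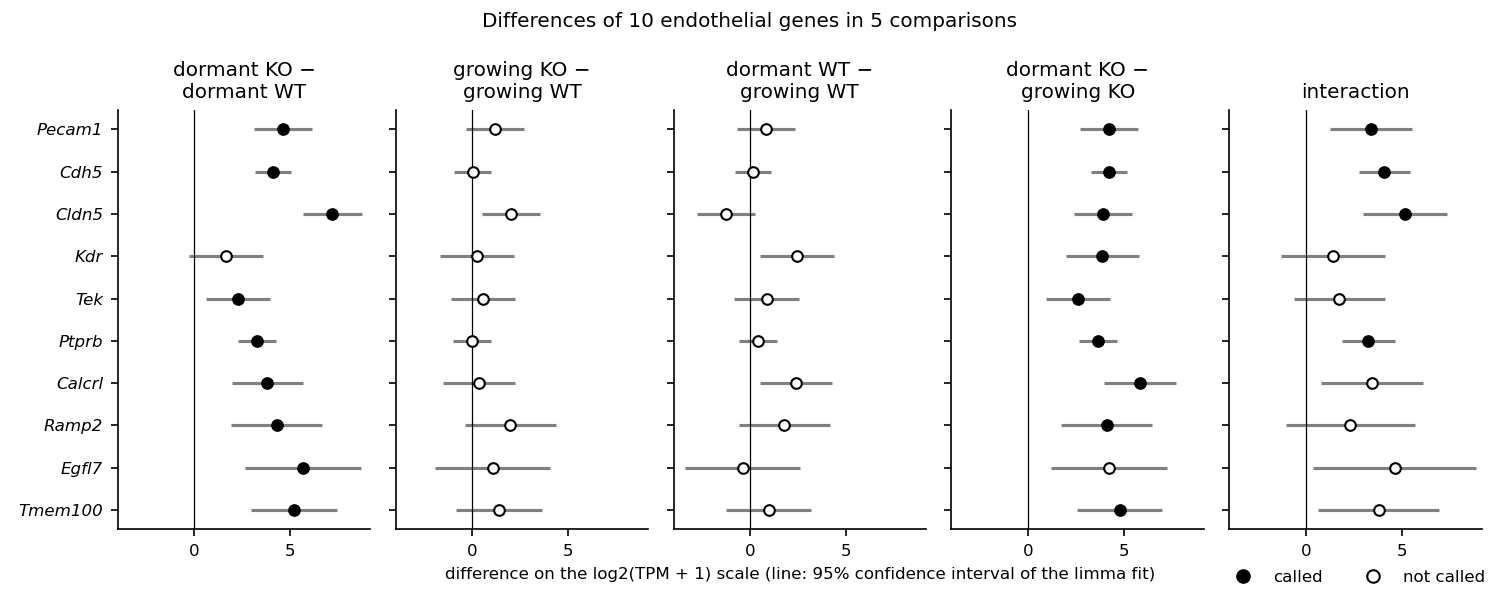
Difference of each gene on the log2(TPM + 1) scale (x axis) in the 5 comparisons, with the 95% confidence interval of the limma fit as a line, filled points for called genes and open points for genes not called. All 10 differences lie above 0 in the comparisons of dormant KO with dormant WT and with growing KO, and Kdr is the gene nearest to 0 in the former.

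Within KO hosts, dormant cells were compared with growing cells of the same library batch. All 10 genes lay higher in every dormant KO library than in every growing KO library, as did 16.4% of the genes tested, and 9 of the 10 were called higher, where 8.31% of all genes tested were. Cdh5, Ptprb, Tek and Calcrl entered this test through the dormant KO libraries as well, so the count and the tests of these 4 genes are descriptions. The differences had a median of 4.17, against -0.32 over all genes tested. Calcrl showed the largest, being at 0.97, 0.78 and 0.50 TPM in growing KO libraries (difference 5.86, SE 0.86, adjusted p = 0.000592). Tmem100, at 14.2, 3.98 and 6.22 TPM in growing KO, differed by 4.78 (SE 1.02, adjusted p = 0.00618), a call lost with pseudocount 0.1 (adjusted p = 0.0845). Growing KO libraries held almost none of Cdh5 (0.02, 0.37 and 0.16 TPM) or Ptprb (0.23, 0 and 0 TPM), and their differences were 4.22 (SE 0.43, adjusted p = 5.80e-05) and 3.67 (SE 0.45, adjusted p = 0.000189).

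Kdr, which overlapped between hosts in dormant cells, was clear of growing KO libraries (0.01, 1.27 and 0.07 TPM, difference 3.88, SE 0.88, adjusted p = 0.00867). Pecam1 (0.20, 1.96 and 2.39 TPM in growing KO) and Cldn5 (25.3, 13.6 and 6.74 TPM) differed by 4.25 and 3.92 (SE 0.69 and 0.70, adjusted p = 0.00117 and 0.00212). Ramp2 (14.1, 16.1 and 14.4 TPM) differed by 4.12 (SE 1.09, adjusted p = 0.02) and Tek (0.09, 0 and 1.95 TPM) by 2.60 (SE 0.77, adjusted p = 0.0337). The Tek call was lost under 6 of 15 alternatives (adjusted p up to 0.123), 4 of which left out a library, namely dormant KO replicate 1 or 2 or growing KO replicate 1 or 2. Egfl7 was not called (3.03, 13.7 and 24.0 TPM in growing KO, difference 4.24, SE 1.38, adjusted p = 0.0526), although its groups were far apart, and it was called under 7 of 15 alternatives. Ramp2 lost its call under 8 of the 15 alternatives, 6 of which left out a library, with differences of 3.97 to 4.23 and adjusted p up to 0.0695 among those 6. The main fit takes 1 spread per gene over all 4 groups, dormant WT among them. With only the KO groups in the fit, Ramp2 kept its call and Egfl7 was called (limma, adjusted p = 0.00503). The growing KO mean was 0.60% (Ptprb) to 6.99% (Tek) of the dormant KO mean, with a median of 3.48% over the members.

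Within WT hosts no member was called in either direction by limma, where 1.85% of all genes tested were called higher in dormant cells. At an unadjusted p under 0.05 there were 2, Kdr (difference 2.46, SE 0.88, adjusted p = 0.111) and Calcrl (2.41, SE 0.86, adjusted p = 0.11), and no other tool was run. Growing WT libraries were low throughout, with Pecam1 and Tek listed at 0 in all 3 and Kdr at 0, 0.48 and 0.01 TPM. Calcrl was at 0.49, 0.32 and 0.25 TPM, Cdh5 at 0.01, 0.01 and 0.53 TPM and Ptprb at 0.16, 0 and 0.05 TPM. Higher values were found for Egfl7 (2.52, 3.96 and 8.31 TPM), Ramp2 (3.44, 1.73 and 4.21 TPM), Tmem100 (5.59, 0.16 and 2.92 TPM) and Cldn5 (3.04, 5.72 and 0.60 TPM). Cldn5 and Egfl7 had fitted differences below 0, at -1.26 and -0.39, although that of Egfl7 was 0.36 with pseudocount 5 and -2.45 to 0.63 without 1 library. In no member did all dormant WT libraries lie above all growing WT libraries, as 7.22% of the genes tested did. Without dormant WT replicate 1, Ramp2 and Calcrl were called (adjusted p = 0.000281 and 0.000748), and without replicate 2 Kdr was called (0.00298). The median difference of the members was 0.85, against -0.35 over all genes tested.

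Between hosts in growing cells, 0 of the 10 genes were called by limma (0.715% of all genes tested were called higher), 1 had an unadjusted p under 0.05, and no other tool was run. All 10 differences were above 0, from 0.01 to 2.03 with a median of 0.81, against 0.02 over all genes tested. The sign turned for Ptprb with pseudocount 0.1 (-0.08) and array weights (-0.01), and for Ptprb, Cdh5 and Kdr without 1 library (down to -0.10, -0.09 and -0.14). In Pecam1, Ramp2, Calcrl and Cldn5 the growing KO libraries all lay above the growing WT libraries, as they did in 13.3% of the genes tested. Cldn5 had the largest difference (2.03, SE 0.70, 95% confidence interval 0.50 to 3.57, adjusted p = 0.373) and Ramp2 the next (1.99, SE 1.09, interval -0.40 to 4.38, adjusted p = 0.847). Ramp2 was called when only the growing groups were fitted (adjusted p = 0.043) and with array weights (0.0284). Tmem100 (1.40), Egfl7 (1.06) and Tek (0.56) had smaller differences that were not called. The intervals of Cdh5 (-0.92 to 0.96) and Ptprb (-0.98 to 0.99) were the narrowest.

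The interaction term asked whether the difference between dormant and growing cells was itself different between hosts. It was called for 4 members, against 6.18% of all genes tested called in that direction. They were Cldn5 (5.18, SE 0.99, adjusted p = 0.00667), Cdh5 (4.09, SE 0.61, adjusted p = 0.00178), Pecam1 (3.42, SE 0.98, adjusted p = 0.0474) and Ptprb (3.27, SE 0.64, adjusted p = 0.0075). Cdh5 and Ptprb entered the test through the dormant KO libraries, so their terms are given as descriptions. Pecam1 lost this call under 16 of 20 alternatives, 11 of which left out a library, with adjusted p up to 0.392. The other 6 were not called, with adjusted p between 0.101 (Calcrl) and 0.572 (Kdr) and differences between 1.43 (Kdr) and 4.63 (Egfl7, adjusted p = 0.175). Without dormant WT replicate 2 the term for Egfl7 was 6.68 and was called (adjusted p = 0.00185). Without dormant WT replicate 1 the term for Ramp2 went from 2.32 to 0.61, that for Calcrl from 3.46 to 2.25 (then called, adjusted p = 0.0382) and that for Tmem100 from 3.81 to 2.51. The term for Kdr went from 1.43 to 0.22 without dormant WT replicate 2 and to 2.18 without replicate 3, and that for Tek from 1.74 to 1.16 without dormant KO replicate 2. The number called was 7 without dormant WT replicate 2, and 2 without any of the dormant KO replicates, where Cdh5 no longer passed the filter and Pecam1 was not called.

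Across the 12 libraries the members rose and fell with each other to differing degrees. These libraries share groups and batches, so the correlations of log2(TPM + 1) are given as descriptions. The median Pearson r over the 45 pairs was 0.81, the highest was 0.98 for Cdh5 and Ptprb, and the lowest 0.29 for Kdr and Egfl7. Kdr was least like the mean of the other members (r = 0.65) and Cdh5 and Ptprb most like it (0.96 each). Among all genes tested, the 5 with the pattern closest to the mean of the members were the haemoglobin gene Hba-a2 (r = 0.98), Cst3 (0.98), S1pr1 (0.98), Emb (0.98) and Hba-a1 (0.98), over 12 libraries. S1pr1, a sphingosine-1-phosphate receptor of the endothelium, was at 99.8, 108 and 91.8 TPM in dormant KO against 2.96, 14.3 and 6.81 in dormant WT libraries. Hba-a2 was at 19716 to 21391 TPM in dormant KO, the other groups spanning 2657 to 5042 TPM. Hba-a1 and Hba-a2 are near-identical copies whose reads the estimate divides, so the level of each is uncertain.

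Some genes of the lists below, among them Vwf, Gja4, Jam2, Cldn18, Ramp1, Smad6 and Notch1, reached 1 TPM in at most 2 libraries outside dormant KO and entered the test through that group, so that counts over the lists are descriptions. Of 30 other pan-endothelial genes, 26 were tested, and dormant KO libraries were called higher for 20 of these and lower for 0, where 12.9% and 9.39% of all genes tested were called, with a median difference of 3.36 against 0.17 over all genes. The largest were Vwf, which encodes von Willebrand factor (87.3, 59.1 and 113 TPM in dormant KO against 0.12, 0 and 0 TPM, difference 6.35), the sialomucin Emcn (92.7, 59.99 and 77.0 TPM against 0 in all 3), the sialomucin Cd34 (6.04), the adhesion molecule Icam2 (5.63), Clec14a (37.0, 43.3 and 41.3 TPM against 0 in all 3) and the water channel Aqp1 (4.88). Those not called included the co-receptor Eng (1.184, adjusted p = 0.187), Acvrl1 (2.41, adjusted p = 0.0984) and the VEGF receptor Flt1. Flt1 was at 3.70, 7.69 and 3.40 TPM with KO hosts, while dormant WT libraries held 29.8, 1.22 and 0.03 TPM, and the groups overlapped (difference 0.45, adjusted p = 0.815). In growing cells 1 gene of this list was called higher in KO hosts, Cd34, at 5.56, 13.6 and 5.02 TPM in growing KO against 0 in all growing WT libraries (adjusted p = 0.0275).

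Lists that mark kinds of endothelium held 4 to 6 tested genes each, where 12.9% of all genes tested were called higher, and no difference between lists was tested. Of 6 aerocyte capillary genes, 5 were called higher in dormant KO, led by Car4, the carbonic anhydrase of lung capillaries, at 372, 428 and 286 TPM against 0, 0 and 44.4 TPM in dormant WT (difference 6.65, adjusted p = 0.00179). Kdr, which is also on that list, was the 1 not called. Of 6 general capillary genes, 5 were called higher, led by Gpihbp1, which anchors lipoprotein lipase on the capillary wall, at 659, 500 and 583 TPM against 0, 116 and 0 TPM (6.89, adjusted p = 0.0057). Tek, itself a member, is among these 5. Ednrb, Apln, Fibin and Tbx2 of the aerocyte list entered the test through the dormant KO libraries. So did Kit, Cd93 and Tek of the general capillary list, and both counts are descriptions. Of the arterial list 1 of 4 tested was called, the connexin Gja4 (17.1, 34.2 and 24.5 TPM in dormant KO against 0 in all dormant WT libraries), while Efnb2, Hey1 and Sox17 were not. Of the venous list Vwf and Ephb4 were called, and Vcam1 and Nr2f2 were not. Ephb4 was at 1.95 to 4.13 TPM in dormant KO and overlapped with growing WT (1.76 to 3.75 TPM) and growing KO (2.21 to 5.40 TPM). Of the lymphatic list Pdpn, Ccl21a and Lyve1 were called, but Prox1, the transcription factor that defines lymphatic endothelium, was at no more than 0.03 TPM and Mmrn1 at no more than 0.04 TPM in any dormant KO library. Ccl21a was at 38.5, 50.3 and 60.2 TPM in growing KO, which overlapped with dormant KO, and at 0 in every WT library. It was also called between hosts in growing cells (5.64, adjusted p = 0.00108). Pdpn is also on the alveolar type 1 list.

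**Figure D4:**
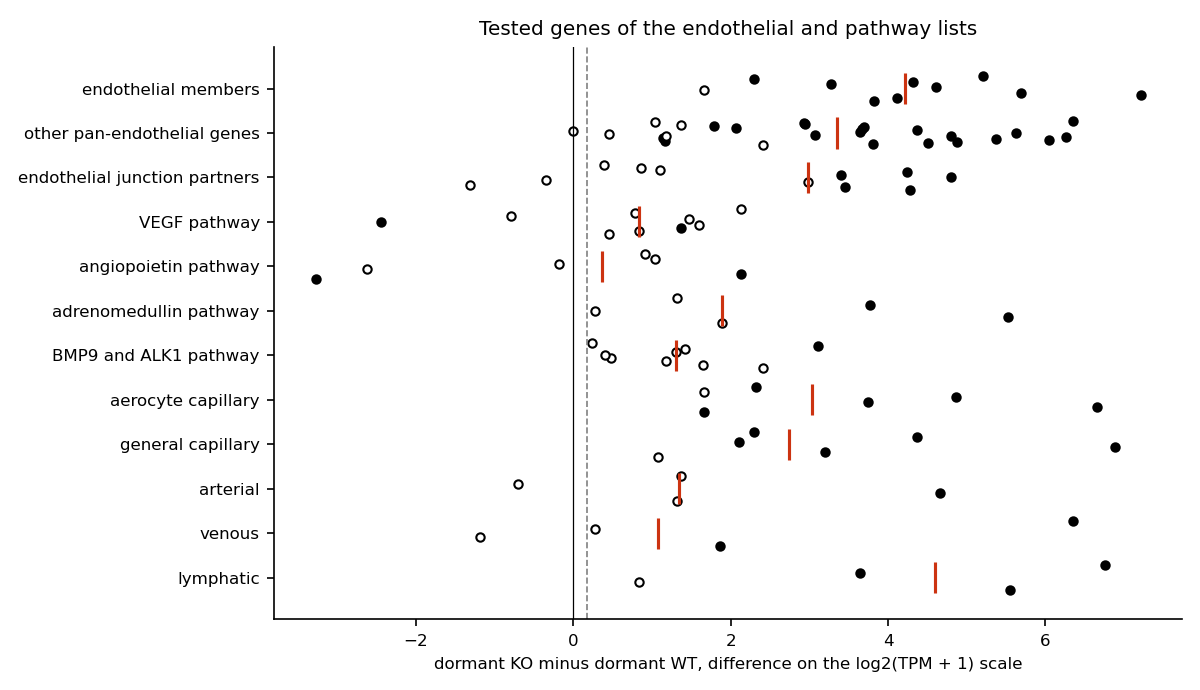
Difference between dormant KO and dormant WT on the log2(TPM + 1) scale (x axis) for each tested gene of the endothelial and pathway lists (y axis), filled where called and open where not, with the list median in red, 0 as a solid line and the median of all genes tested (0.17) dashed. The medians of the other pan-endothelial, aerocyte and general capillary lists are 3.36, 3.03 and 2.75, and those of the VEGF and angiopoietin pathway lists 0.83 and 0.36.

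Of 12 genes of the VEGF pathway 9 were tested, and 1 was called higher and 1 lower, where 12.9% and 9.39% of all genes tested were called. Notch1, a receptor downstream of VEGF signalling in vessels, was at 1.80, 1.70 and 1.76 TPM in dormant KO against 0, 0.01 and 0.21 TPM (difference 1.37, adjusted p = 0.00144), and it too reached 1 TPM in no library outside dormant KO. Nrp2, a VEGF co-receptor, was lower, at 3.12, 1.83 and 2.49 TPM against 23.9, 15.9 and 14.5 TPM in dormant WT libraries (difference -2.44, adjusted p = 0.00379). The ligands Pgf (1.47, adjusted p = 0.376) and Vegfb (2.13, adjusted p = 0.15) and the co-receptor Nrp1 (1.60, adjusted p = 0.146) were not called.

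Of 7 angiopoietin pathway genes 6 were tested, and the ligands went apart. Angpt1, the activating ligand of Tek, was at 1.35, 1.90 and 0.28 TPM in dormant KO against 7.84, 19.7 and 42.2 TPM in dormant WT libraries (difference -3.27, SE 0.73, adjusted p = 0.00627). Angpt2, the context-dependent ligand of Tek made by endothelium, was at 2.32, 4.56 and 3.54 TPM against 0 in all 3 dormant WT libraries (adjusted p = 0.0115). Growing libraries held Angpt2 too, at 3.26 to 6.75 TPM in WT and 4.31 to 13.2 TPM in KO hosts, and overlapped with dormant KO. Angptl4 (-2.62, adjusted p = 0.0574), Foxo1 (-0.18, adjusted p = 0.916) and Tns1 (0.91, adjusted p = 0.286) were not called.

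Of 9 adrenomedullin pathway genes 5 were tested and 2 called higher, where 12.9% of all genes tested were, and Ramp1 of these entered the test through dormant KO. Calcb, which encodes the beta form of the calcitonin gene-related peptide, was at 48.9, 55.3 and 33.5 TPM in the dormant KO group, while each dormant WT library was at 0 (adjusted p = 4.57e-05). Ramp1, which pairs with Calcrl to form the receptor of that peptide, was at 15.4, 8.34 and 16.1 TPM against 0, 0.03 and 0 TPM (difference 3.77, adjusted p = 0.000403). Calcb also had a called interaction (6.14, adjusted p = 0.000949). The adrenomedullin gene Adm was at 0 in 8 of the 9 libraries outside dormant KO, stood at 0, 6.86 and 0.23 TPM within that group and was not tested. Gnas (0.28, adjusted p = 0.611), Ackr3 (1.89, adjusted p = 0.243) and Ramp3 (1.32, adjusted p = 0.393) were not called.

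Of 13 junction partners 11 were tested and 5 called higher, where 12.9% of all genes tested were. These were Esam (91.2, 57.1 and 59.4 TPM in dormant KO against 0, 0.29 and 10.6 TPM, difference 4.80), Cldn18 (4.28), Jam2 (30.1, 13.3 and 14.2 TPM against 0 in all dormant WT libraries), Cldn3 (3.45) and F11r (3.41). Cldn18 and Cldn3 are claudins of lung epithelium and not of vessels. The catenins that carry VE-cadherin were not called, with Ctnnb1 at 182, 200 and 141 TPM against 77.0, 0.03 and 132 TPM (2.98, adjusted p = 0.142) and Ctnna1 at a difference of -1.32 (adjusted p = 0.159). Jup was not called either (1.11, adjusted p = 0.504). Of 12 genes of the BMP9 and ALK1 pathway, in which Tmem100 acts, 9 were tested and 1 called higher, a share near the 12.9% of all genes. Smad6, an inhibitory SMAD, was at 8.04, 7.32 and 7.48 TPM with KO hosts among dormant cells, being listed at 0 in each of the 9 other libraries (adjusted p = 1.62e-05), and entered the test through that group. Id1 (0.47, adjusted p = 0.261) and Id3 (0.40, adjusted p = 0.159), general targets of the pathway, were not called.

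Markers of other lung cells moved with the endothelial genes. The alveolar type 2 list (9 genes, led by surfactant protein C, Sftpc) summed to 40125 to 42470 TPM in dormant KO against 77.2 to 141 TPM in dormant WT libraries, with 7 of 9 genes called higher, where 12.9% of all genes tested were. The same 12.9% is the share to set beside the count called higher in each list that follows. The alveolar type 1 list summed to 1028 to 1201 against 4.50 to 87.4 TPM (7 of 9 called), the mesothelial list to 798 to 1274 against 0 to 55.6 TPM (6 of 6), and the fibroblast and pericyte list to 1876 to 2127 against 55.2 to 276 TPM (5 of 10 tested). The club and ciliated list summed to 1945 to 2493 against 8.47 to 249 TPM (5 of 6 tested) with the ciliated factor Foxj1 at 0 in every library, the platelet and megakaryocyte list to 601 to 786 against 0 to 169 TPM (4 of 4 tested) with Gp1ba and Gp5 at 0 in every library, the leukocyte list to 5658 to 6289 against 742 to 1371 TPM (6 of 11 tested), and the erythroid list to 50831 to 56264 against 8988 to 13031 TPM (4 of 5 tested). Of the 8 genes of the mammary carcinoma list, whose sum is mostly Spp1, 2 were called higher in dormant KO (Krt7, 5.35, and Epcam, 1.68), 2 lower (Spp1, -4.66, and Krt8, -1.62) and 4 not called, among them Krt18 (0.09). Over all genes tested, 12.9% were called higher and 9.39% lower. Krt7 and Epcam each reached 1 TPM in 1 library outside dormant KO and entered the test through that group. Krt7 was at 0 in every WT library. In growing KO libraries the members were at a median of 3.48% of their dormant KO means. The medians were 0% for platelet, 2.29% for alveolar type 1, 3.04% for alveolar type 2, 5.44% for leukocyte and 6.61% for mesothelial genes. Erythroid genes were at 13.7%, fibroblast and pericyte genes at 18.9% and club and ciliated genes at 42.1%. Each median covers genes with a dormant KO mean of at least 1 TPM, a choice made on the group where they are high. The part of these other lung transcripts in the result for the endothelial genes was not tested.

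**Figure D5:**
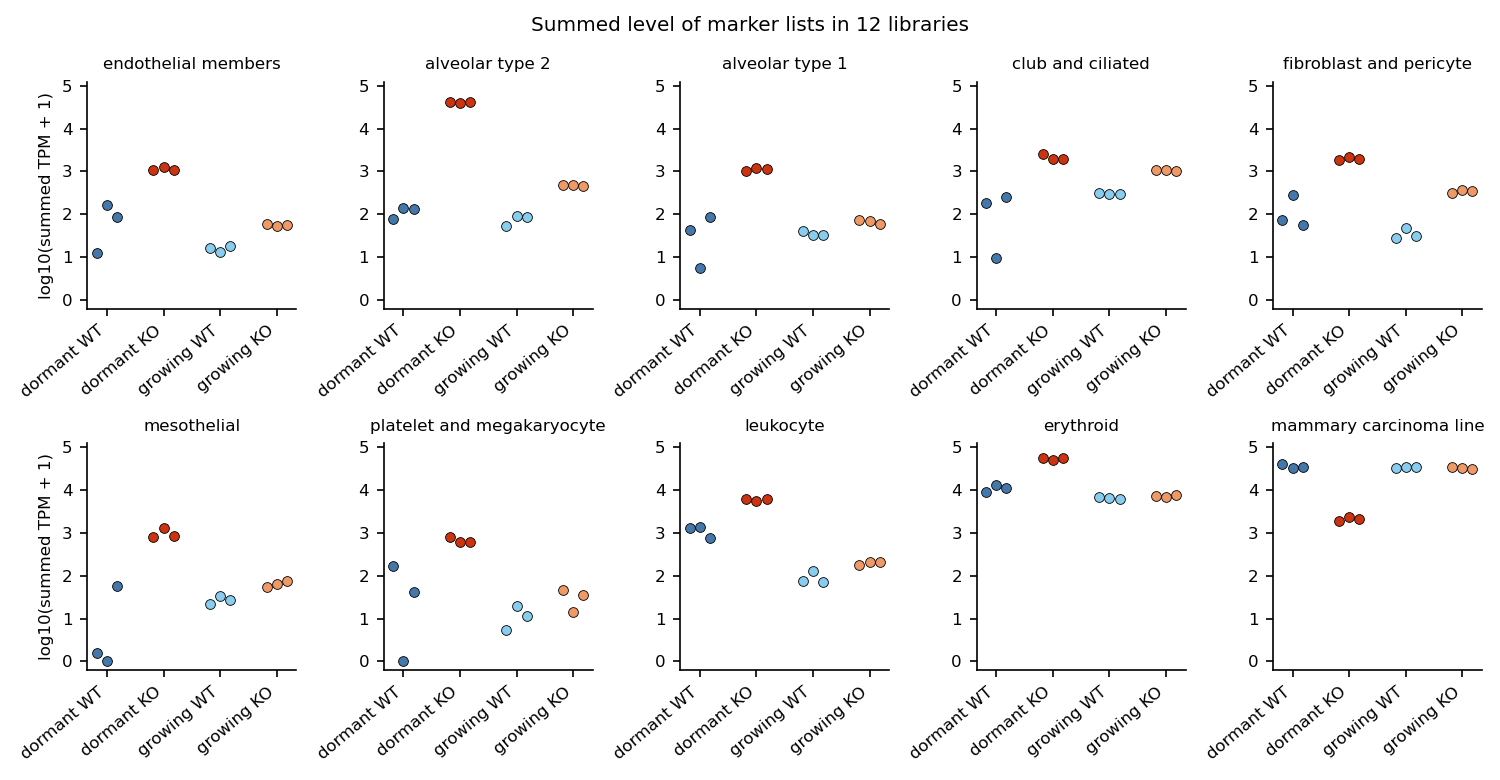
Summed TPM of each marker list per library, as log10(summed TPM + 1) on the y axis, with the 4 groups on the x axis and 1 point per library. The dormant KO libraries are the highest for each list of lung and blood cells shown and the lowest for the mammary carcinoma list.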

How the data were processed

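RNA of 12 libraries (aliquots of 50 sorted cells) was sequenced by the authors. The submitters' processing notes name bcl2fastq 2.20, cutadapt 1.18, STAR 2.5.2b, RSEM 1.3.3 and the build mm10. The deposited values are TPM that the authors estimated per gene; depth is unknown, so no counting interval can be given. Another 30 value columns of the table, some with names giving WT and library batch 2, matched none of the labelled samples and stayed out of the analysis. From the TPM, genes at 1 or more in at least 3 of 12 libraries (13002) were tested with limma 3.58.1 in R 4.3.3 (lmFit, then eBayes with a trend) on log2(TPM + 1), with all 4 groups in the fit, two-sided tests and Benjamini-Hochberg adjustment. A call needed an adjusted p of at most 0.05 and a difference of at least 1; a difference on this scale understates the change of low genes. The fit was tested on simulated data. Errors are SD over 3 libraries. Alternatives changed the pseudocount, filter, scaling, libraries in the fit, weights or replicate block. All members are named in every comparison; of the other lists, up to 6 called genes by size and up to 3 not called by level, and the 5 nearest genes. A gene outside this rule was named after its values were seen. Members and lists were chosen with earlier results of these data known.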

Additional observations from a re-analysis of the deposited data

Results flagged for a closer look

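The limma interaction term, the difference between dormant and growing cells in KO less that in WT hosts, was called above 0 for Pecam1 (3.418), Cdh5 (4.093), Cldn5 (5.179) and Ptprb (3.265) on the log2(TPM + 1) scale, with adjusted p of 0.0474, 0.00178, 0.00667 and 0.0075. In each of these genes all 3 dormant KO libraries lay above the 9 others. Over all genes tested they lay above the dormant WT libraries in 18.6% and above the growing KO libraries in 16.4%. The share above all 9 others was not computed. Pecam1 and Ptprb lost the call under 16 and 2 of 20 alternatives, and Cldn5 under none of 20. Cdh5 kept it in the 17 alternatives in which it could be tested. Cdh5 and Ptprb reached 1 TPM in 0 and 1 libraries outside dormant KO and entered the test through that group, so their terms do not support a larger difference. Host and library batch cannot be told apart in this term with the libraries used, and the part of the other lung transcripts that moved with it was not tested.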

How the results depend on the processing

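Of 791 values of members under the alternatives, 710 kept their direction and their side of the threshold, 46 lost a call, 21 gained one and 14 changed sign, none of these with an adjusted p of 0.05 or less. In dormant KO against dormant WT the 9 members called became 5 with only the groups compared, and 7 to 9 without 1 library; Cdh5 could not be tested without a dormant KO library, as fewer than 3 libraries then reached 1 TPM. In growing KO against growing WT 0 became 1 with only the groups compared and 1 with array weights. In dormant against growing WT 0 became 2 with quantile normalization, and 0 to 2 without 1 library. The 4 called interactions became 2 with pseudocount 0.1, 6 with pseudocount 5 (Calcrl and Tmem100 gained), 2 with quantile normalization, and 2 to 7 without 1 library. Without 1 library the 9 called in dormant against growing KO became 6 to 8. The cause was not tested.

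The changes of sign were as follows. In growing cells between hosts, Ptprb was at -0.08 with pseudocount 0.1, -0.011 with array weights and -0.095 to 0.064 without 1 library, Cdh5 at -0.093 to 0.218 and Kdr at -0.137 to 0.447. In dormant against growing WT, Egfl7 was at 0.359 with pseudocount 5 and -2.448 to 0.633 without 1 library, Cdh5 at -0.131 to 0.329 and Ptprb at -0.095 to 0.661.

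With the replicate block, 8 members were called in dormant KO against dormant WT (Tek lost), 10 in dormant against growing KO (Egfl7 gained), 3 for the interaction (Pecam1 lost) and 0 in the other comparisons. Same-numbered libraries did not deviate together (r of -0.014 to 0.021). In aliquots of 50 cells, variation particular to each library can hide a shared animal. Whether the numbers pair dormant and growing libraries by mouse is therefore not known. Median-ratio scaling moved the median of all genes from 0.17 to 0.50 in dormant KO against dormant WT and the share of calls that were higher from 57.9% to 74.0%; in dormant against growing KO they moved from -0.32 to 0.09 and from 46.7% to 69.2%, and for the interaction from 0.16 to 0.49 and from 61.2% to 79.1%. Quantile normalization moved that share from 24.6% to 50.6% in dormant against growing WT and from 46.7% to 56.9% in dormant against growing KO. Over all genes, calls in dormant KO against dormant WT went from 2898 to 1680 with only the groups compared and 1418 with array weights, in growing KO against growing WT from 127 to 308 and 516 and to 66 to 78 without 1 library, in dormant against growing WT from 977 to 637 without the filter, 310 with array weights and 447 to 1918 without 1 library, in dormant against growing KO from 2313 to 3586 with array weights, and for the interaction from 1312 to 861 without dormant KO replicate 1.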
